A study of Mus musculus with 9 samples.

Results

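Long intergenic noncoding RNAs (lincRNAs) are mostly spliced, polyadenylated transcripts that lie outside protein-coding genes and have no known large reading frame. A gene was taken as a member if GENCODE M21 types it as lincRNA, it lies on an autosome, and its mean over the 9 libraries was at least 1 CPM (a gene’s count relative to the total count of its library). That rule gave 173 genes out of 55401 gene IDs in the count table, which hold 4979 autosomal lincRNA genes; 3466 of these had 0 counts in every library. The values that chose the members are their mean levels, so the level itself is described without a test, and differences between genotypes did not enter the choice. Gm44053, at a mean of 1.001 CPM, was the last gene inside the threshold, and B930059L03Rik, at 0.9998 CPM, the first outside it. All 173 members passed the filter on low counts.

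The libraries come from primary mouse peritoneal macrophages that thioglycollate, an irritant, had drawn into the cavity. There were 3 libraries each of SE (Stat6 S807E, homozygous), SA (Stat6 S807A, homozygous) and WT mice. All cells were kept in DMEM with 10% FBS for a short adherence and collected with no further agent named. Poly(A) RNA was selected with oligo-dT. STAT6 is the transcription factor of the interleukin-4 receptor; alanine at Ser807 cannot be phosphorylated, and glutamate is a charged stand-in for the phosphate. Neither age nor sex is given, nor whether each library of a genotype is a separate animal; p-values therefore cover only the spread between these samples. The libraries held 17286617 to 24618608 counts each, so that a count of 3 equals 0.122 to 0.174 CPM (counting error only). The macrophage genes Csf1r (4799 to 5688 CPM) and Adgre1 (1525 to 1800 CPM) were high in every library, and WT2 and SE3 stood apart from the other libraries of their genotypes. Stat6 itself averaged 296 CPM in SE, 198 CPM in SA and 195 CPM in WT. Levels of single genes are given as CPM scaled by TMM, and in these bulk samples fewer cells of a type and less RNA per cell cannot be told apart.

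LincRNAs act in several ways. Some stay in the nucleus and build or visit nuclear bodies: Neat1 is the scaffold of paraspeckles, and Malat1 gathers at nuclear speckles, where splicing factors are stored. Others are precursors whose exons or introns release microRNAs or small nucleolar RNAs (snoRNAs), and others bind proteins or microRNAs in the cytoplasm. In mouse macrophages, lincRNAs are known to take part in inflammatory and cholesterol-handling programmes. Most lincRNAs have no known role, and 89 of the 173 members carry only a predicted-gene symbol (Gm and a number) while 54 end in Rik, the mark of a cDNA clone.

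Sequences of 4 promoters are shown as examples chosen after their values were seen: Malat1 as the most abundant called lincRNA, Gm10419 and Gm14461 as those with the largest falls in SA, and 1110002J07Rik as the called member that holds the motif described here. They are from RefSeq on GRCm38.p6 and run from 250 bases before the RefSeq start to 50 after it, on the gene's own strand. For Gm10419 the RefSeq start lies 168 bases inside the GENCODE gene, so part of its printed window is annotated as transcribed. Malat1 (chr19:5802623-5802922, minus strand) was low in SE. Gm14461 (chr2:78237297-78237596, plus strand) and Gm10419 (chr5:108367687-108367986, plus strand) were both low in SA, although their promoters hold 39.7% and 84.0% G and C. 1110002J07Rik (chr10:66920335-66920634, minus strand) was high in SA. Capitals mark TTCNNNNGAA, a palindrome spacing that STAT6 is known to bind.
Malat1: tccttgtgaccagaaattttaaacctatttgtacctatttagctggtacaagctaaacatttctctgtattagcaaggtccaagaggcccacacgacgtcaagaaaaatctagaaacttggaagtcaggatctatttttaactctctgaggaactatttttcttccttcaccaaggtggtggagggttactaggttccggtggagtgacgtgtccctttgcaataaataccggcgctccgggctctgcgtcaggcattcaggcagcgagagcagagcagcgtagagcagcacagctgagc
Gm14461: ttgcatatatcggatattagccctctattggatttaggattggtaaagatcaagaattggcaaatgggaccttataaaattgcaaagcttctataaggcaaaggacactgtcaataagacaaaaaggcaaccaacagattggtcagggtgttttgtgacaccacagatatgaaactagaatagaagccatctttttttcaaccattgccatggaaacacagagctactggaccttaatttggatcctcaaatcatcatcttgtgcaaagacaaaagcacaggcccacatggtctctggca
Gm10419: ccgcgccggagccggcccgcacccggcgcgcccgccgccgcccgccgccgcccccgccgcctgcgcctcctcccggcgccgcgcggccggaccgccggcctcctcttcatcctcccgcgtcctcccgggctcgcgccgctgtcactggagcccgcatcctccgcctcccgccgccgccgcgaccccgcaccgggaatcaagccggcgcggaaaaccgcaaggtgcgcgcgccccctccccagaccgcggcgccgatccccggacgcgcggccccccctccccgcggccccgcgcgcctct
1110002J07Rik: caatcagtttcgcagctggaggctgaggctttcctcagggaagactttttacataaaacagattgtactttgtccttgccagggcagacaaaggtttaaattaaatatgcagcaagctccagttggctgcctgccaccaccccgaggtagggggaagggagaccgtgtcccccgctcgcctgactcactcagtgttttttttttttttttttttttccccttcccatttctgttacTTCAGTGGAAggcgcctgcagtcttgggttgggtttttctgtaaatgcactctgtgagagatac

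By symbol, 105 RefSeq promoters matched members, and 87 of the 173 members had a promoter on their own chromosome and strand. TTCNNNNGAA, which reads the same on both strands, was in 8 of these 105 promoters (7.62%) and in 6.95% of all 32851 RefSeq promoters of the same length. The shorter spacing TTCNNNGAA, which other STAT proteins favour, was in 4 of 105 (3.81%) and in 8.30% of all promoters. Among members that changed, the longer motif was found in 1110002J07Rik, with its first base at position -14 relative to the RefSeq start. That start lies 126 bases upstream of the GENCODE start of the gene. Such a match is a description of the letters and shows no binding.

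MicroRNA precursors were measured as whole transcripts, and the mature forms they release are shown to identify them. The 3 let-7 5p arms of 6720427I07Rik (chromosome 13) share 1 seed, miR-17-5p and miR-20a-5p of Mir17hg (chromosome 14) share another, and miR-19a-3p and miR-19b-3p, also of Mir17hg, have one of their own. Mir142hg (chromosome 11) is the precursor of miR-142, a microRNA of blood cells. Capitals mark the seed (bases 2 to 8), and the sequences are from RefSeq, GRCm38.p6.
mmu-let-7a-5p: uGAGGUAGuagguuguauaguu
mmu-let-7d-5p: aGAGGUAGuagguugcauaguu
mmu-let-7f-5p: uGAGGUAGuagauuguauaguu
mmu-miR-17-5p: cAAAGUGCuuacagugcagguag
mmu-miR-20a-5p: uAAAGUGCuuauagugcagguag
mmu-miR-19a-3p: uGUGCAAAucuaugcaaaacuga
mmu-miR-19b-3p: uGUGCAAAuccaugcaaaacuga
mmu-miR-142a-5p: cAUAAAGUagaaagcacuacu
mmu-miR-142a-3p: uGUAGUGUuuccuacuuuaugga

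A few lincRNAs supplied most of the lincRNA reads. Neat1 and Malat1 alone gave 66.7% of all member counts, and 5 members exceeded 100 CPM, whereas 68 lay between 1 and 2 CPM, 58 between 2 and 5 CPM and 34 between 5 and 20 CPM. The median member had 2.73 CPM, against 30.9 CPM for the 10405 protein-coding autosomal genes of at least 1 CPM. Its annotated exons spanned 2134 bases in 3 exons at most per transcript, against 4572 bases and 10 exons for coding genes. The coefficient of variation within a genotype had a median of 14.9% for the members and 6.95% for coding genes.

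Per kilobase of exon, the order differed from that by counts. Malat1 led at 188 RPKM (mean over 9 libraries). Neat1, whose annotated exons are 20771 bases long, followed at 75.4 RPKM, AU020206 stood at 56.7 RPKM and 2900097C17Rik at 44.3 RPKM. Counts per gene do not separate long from short transcripts of a gene. The order, that of Malat1 and Neat1 included, therefore rests on dividing by all annotated exons. 2900097C17Rik is the mouse Norad gene, whose RNA binds Pumilio proteins, and 44.7% of its 31-base words also occur in transcripts of other genes, first of all Gm7292. Mir142hg, at only 9.43 CPM, ranked 5 per length with 35.1 RPKM, its annotated exons being 269 bases long.

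**Figure D1:**
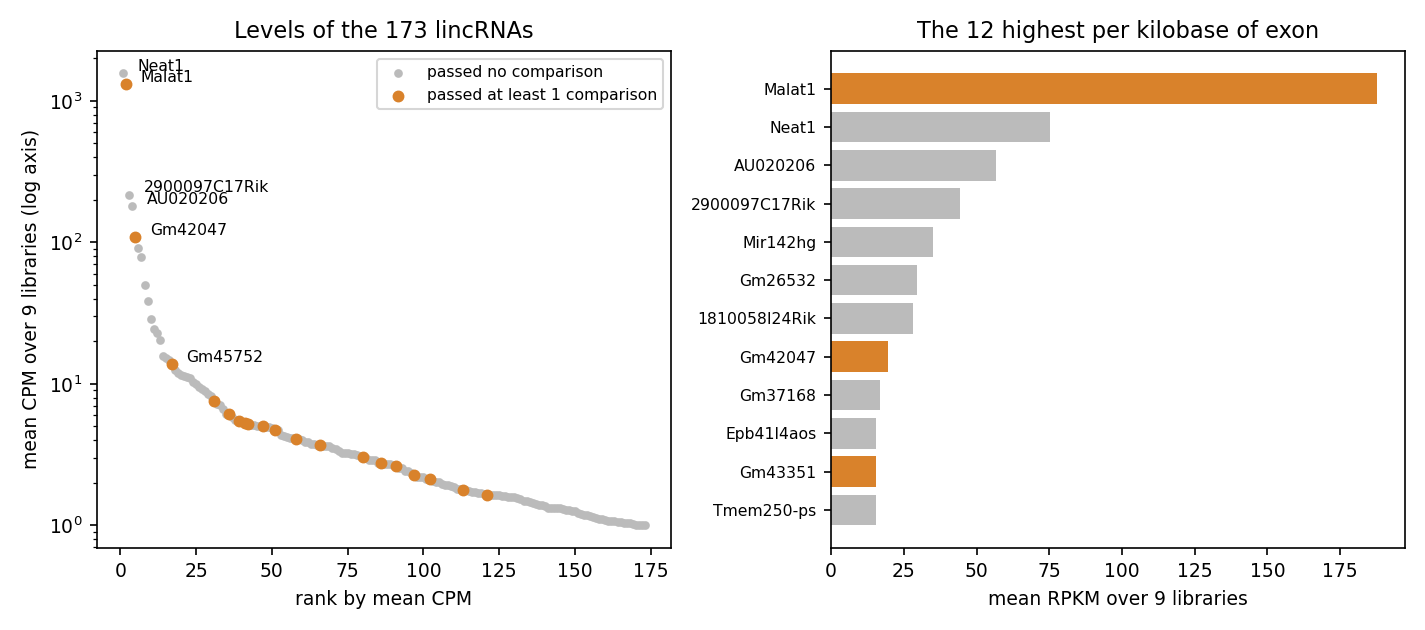
Left, mean CPM of the 173 lincRNAs over 9 libraries (log axis) against rank by mean CPM; right, mean RPKM of the 12 highest per kilobase of exon. Orange marks the 19 members that passed at least 1 comparison; Neat1 and Malat1 lie far above the other members by CPM.

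The annotation places many members close to or across other genes. For 42 members, annotated exons overlap those of another gene, 37 on the opposite strand and 5 on the same strand. Since the strand setting of the counting is not given, reads from the partners cannot be told apart there. Of the 42, 4 are among the 19 members that passed at least 1 comparison, with Malat1, Gm45752 and Gm10419 included. A protein-coding gene starts within 1000 bases of 26 members, 18 of them divergently, and 27 members lie more than 100000 bases from the nearest coding start. For 8 members over 50% of the 31-base words occur in other genes' transcripts, so their counts are uncertain, and 72 members share no such word.

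LincRNAs were called about as often as other genes. A gene was called where edgeR gave an adjusted p (Benjamini-Hochberg, 13501 tested genes) under 0.05. In SA against WT, 9 of 173 members (5.20%) were called, 4 higher and 5 lower, where 4.07% of all tested genes were called (1.97% higher, 2.1% lower). In SE against WT, 7 members (4.05%) were called, 1 higher and 6 lower, where 5.04% of all genes were called (2.35% higher, 2.69% lower). In SE against SA, 14 members (8.09%) were called, 3 higher and 11 lower, where 10.2% of all genes were called (4.77% higher, 5.42% lower). These shares are near the background, and no test of direction was run.

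Median differences were small. Over the 173 members the median log2 fold change was -0.01 in SA against WT, -0.07 in SE against WT and -0.03 in SE against SA, where all tested genes had medians within 0.01 of 0. With 1 library left out these medians ranged from -0.03 to 0.03 in SA against WT, where the sign therefore turned, from -0.10 to -0.05 in SE against WT and from -0.09 to -0.03 in SE against SA, with -0.09 found without SA1. Negative differences were found for 90, 107 and 97 members in the same order. Groups did not overlap for 35 members in SA against WT (20.2%, background 19.3%), 40 in SE against WT (23.1%, background 20.5%) and 39 in SE against SA (22.5%, background 28.3%). Leaving out libraries changed the counts: SE against WT had 4 called members without WT3 and 4 without SE1, SA against WT had 6 without WT3 and 6 without SA1, and SE against SA had 9 without SA1, 8 without SA2 and 9 without SE1. With both WT2 and SE3 left out, the counts were 11 in SA against WT, 7 in SE against WT and 17 in SE against SA. Calls over all genes in these refits are not given here, so changes among lincRNAs cannot be told apart from changes in all calls.

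The calls were also counted by level. Of the 68 members between 1 and 2 CPM, 0 were called in SA against WT, 0 in SE against WT and 2 in SE against SA, where 6.64%, 3.95% and 10.6% of the 557 coding genes at that level were called. At an unadjusted edgeR p under 0.05 they were 5, 5 and 10 of the 68, and DESeq2 called 0, 0 and 1. Of the 34 members between 5 and 20 CPM, 4, 3 and 5 were called in the same order, and 4.67%, 5.10% and 9.49% of coding genes at that level.

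**Figure D2:**
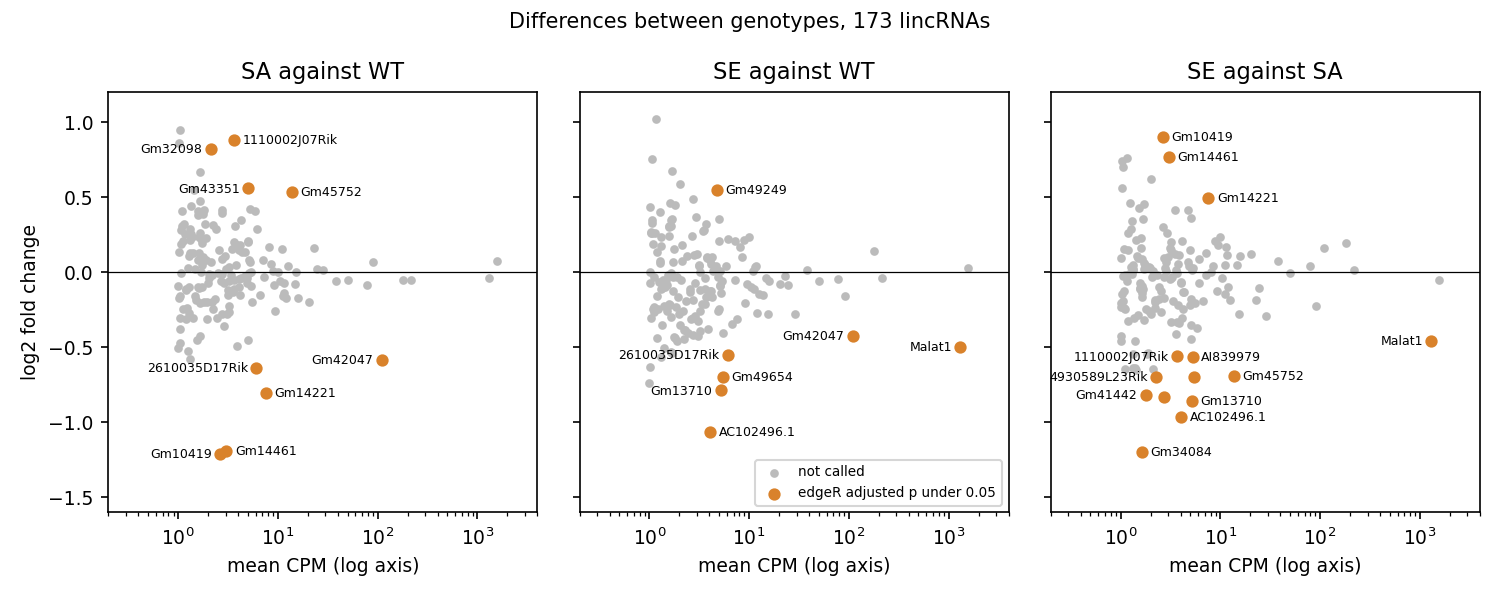
Log2 fold change of the 173 lincRNAs against mean CPM (log axis) in SA against WT, SE against WT and SE against SA. Orange points passed edgeR at an adjusted p under 0.05 (9, 7 and 14 members) and are named where there is room; most lie between 1.5 and 20 CPM, with Gm42047 and Malat1 the exceptions above 100 CPM.

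Malat1, the speckle-associated RNA and rank 2 by mean CPM, was lower in SE than in both other genotypes. It lies at chr19:5795690-5802672 (mm10, minus strand). Malat1 had 909, 1153 and 1057 CPM in SE, 1472, 1352 and 1464 CPM in SA, and 1627, 1303 and 1467 CPM in WT. Every SE library lay below every SA and WT library, while SA and WT overlapped. The log2 difference was -0.50 ± 0.09 in SE against WT (standard error, edgeR adjusted p = 0.0023), 1.41-fold lower, and -0.46 ± 0.09 in SE against SA (edgeR adjusted p = 0.00227), 1.38-fold lower. In SA against WT it was -0.04 ± 0.09 (edgeR adjusted p = 0.929). Both SE calls held in all 18 settings tried (other scalings and filters, DESeq2, a replicate block, only the compared genotypes, and 1 or 2 libraries left out). Gm37376, which shares 453 exon bases with Malat1 on the opposite strand, had 0 counts in every library.

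Neat1, the paraspeckle scaffold, lies 22035 bases from Malat1 on the same strand. Neat1 had 1550, 1543 and 1576 CPM in SE, 1576, 1598 and 1663 CPM in SA, and 1530, 1543 and 1514 CPM in WT. SE overlapped WT, and each SA library lay at or above the highest SE library and above all WT libraries. The difference in SE against WT was 0.03 ± 0.05 (edgeR adjusted p = 0.853), which did not pass the test. The ratio of Malat1 to Neat1 was 0.586, 0.747 and 0.671 in SE, 0.934, 0.846 and 0.880 in SA, and 1.06, 0.844 and 0.969 in WT. Its groups did not overlap between SE and either other genotype; an exact two-sided permutation test gave p = 0.1 in SE against WT, p = 0.1 in SE against SA and p = 0.5 in SA against WT, and 0.1 is the smallest p that 3 against 3 libraries allow.

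**Figure D3:**
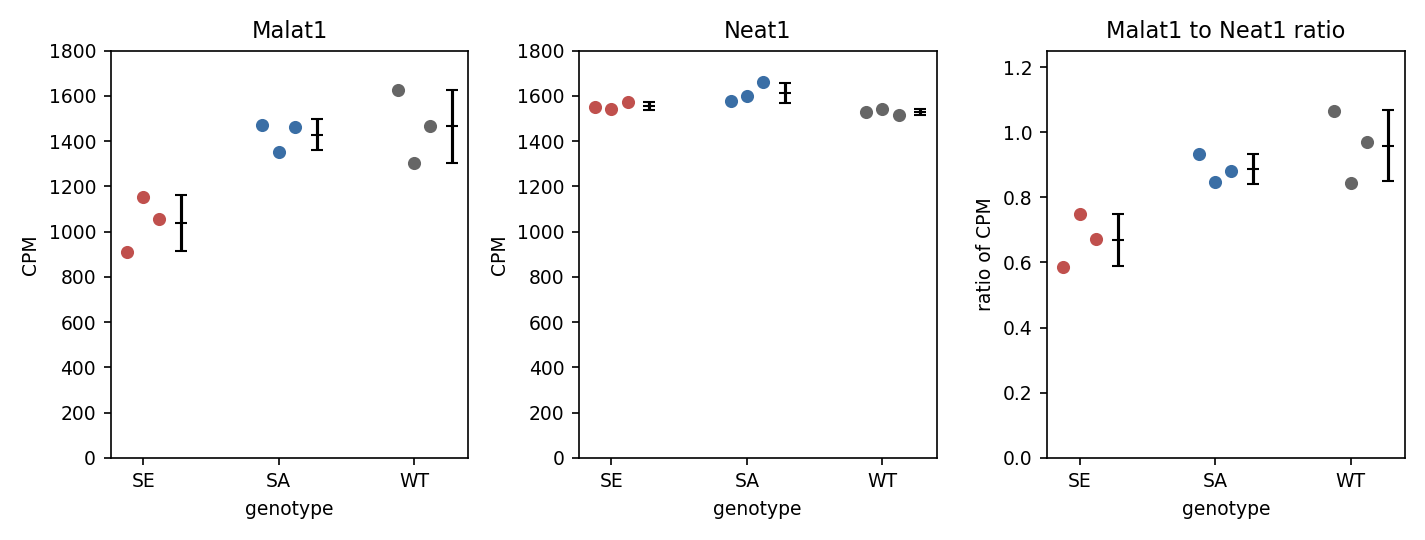
CPM of Malat1 (left) and Neat1 (middle) and the ratio of Malat1 to Neat1 (right) in each library of SE, SA and WT, with the mean and SD (n = 3) in black. Malat1 lies between 909 and 1153 CPM in SE and at or above 1303 CPM in SA and WT, while Neat1 lies between 1514 and 1663 CPM throughout.

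The 3′ end of Malat1 is unusual: it is cut by RNase P and closed by a triple helix in place of a poly(A) tail. RNAs with no tail can bind oligo-dT through A-rich stretches inside them. The longest A run of its GENCODE M21 transcript is shown for that reason (chr19:5795978-5796029, mm10, minus strand, run in capitals); it has 12 A and ends 298 bases before the annotated end, while the longest run of Neat1 has 7. Whether capture differed between libraries was not tested.
Malat1 A run: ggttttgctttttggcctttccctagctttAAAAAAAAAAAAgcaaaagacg

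The summed lincRNA level was lower in SE with Malat1 and Neat1 included. All 173 members together averaged 3949 ± 135 CPM in SE, 4537 ± 22.99 CPM in SA and 4469 ± 308 CPM in WT (SD, n = 3 each, relative to the library total). Without Malat1 and Neat1 the sums were 1393 ± 55.0 CPM in SE, 1447 ± 42.9 CPM in SA and 1481 ± 89.0 CPM in WT. SE libraries lay below all SA and WT libraries in the first sum, and the groups overlapped in the second.

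Genes for proteins of these nuclear bodies and of RNA decay were counted beside a background of 4.07% called in SA against WT, 5.04% in SE against WT and 10.2% in SE against SA, at which lists this short hold few calls. Of 14 paraspeckle protein genes 0 were called in SA against WT, 0 in SE against WT and 1 in SE against SA, Dazap1, which was higher by 0.29 (log2, edgeR adjusted p = 0.0162). Of 14 nuclear speckle protein genes none was called in any comparison, with medians of 0.05, 0.02 and -0.03. Among 16 tested genes of the nuclear RNA exosome and its adaptors, which degrade unstable nuclear RNA, 0 were called in any of the 3 comparisons by edgeR. At an unadjusted edgeR p under 0.05 the counts in SA against WT, SE against WT and SE against SA were 1, 3 and 1 for paraspeckle genes, 0, 3 and 3 for speckle genes and 1, 6 and 4 for exosome genes. DESeq2 called 1, 0 and 1 paraspeckle genes, 0, 0 and 2 speckle genes and no exosome gene. Smg5, a factor of nonsense-mediated decay, was higher in SE by 0.25 against WT (edgeR adjusted p = 0.0195) and by 0.34 against SA (edgeR adjusted p = 0.00146), the only one of 10 decay genes called.

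Besides Malat1, 3 less abundant lincRNAs of unknown function were low in SE against both genotypes. Gm49654 (chr12:81717830-81720052, minus strand, 1 exon) had 3.43, 3.84 and 4.19 CPM in SE, 6.13, 5.96 and 6.53 CPM in SA, and 5.07, 7.28 and 6.42 CPM in WT. Gm13710 (chr2:84500760-84531322, minus strand) had 2.50, 4.31 and 3.61 CPM in SE, 6.52, 5.86 and 6.32 CPM in SA, and 5.67, 6.52 and 5.72 CPM in WT. AC102496.1, on chromosome 18, had 2.45, 2.91 and 1.94 CPM in SE, 5.11, 5.30 and 3.75 CPM in SA, and 5.39, 4.87 and 4.89 CPM in WT. In each of the 3 genes the SE libraries lay below all SA and WT libraries. Against WT, Gm49654 was 1.62-fold, Gm13710 1.73-fold and AC102496.1 2.09-fold lower in SE (edgeR adjusted p = 0.0122, 0.00945 and 0.00181). Against SA, Gm49654 was 1.63-fold, Gm13710 1.81-fold and AC102496.1 1.95-fold lower in SE (edgeR adjusted p = 0.00701, 0.00291 and 0.0023). The call of Gm49654 against WT was lost without WT3 or SE1 and that of Gm13710 without SE1, at edgeR adjusted p up to 0.0774 and 0.062. AC102496.1 shares 57.9% of its 31-base words with transcripts of 33 other genes, so its level is uncertain. Its closest partner Gm42427 had at most 0.0465 CPM, which does not settle this, since the counting of reads that match several genes is not given.

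Among markers of other cells, the T and NK cell list and the B cell gene Ighm also lay lower in SE than in both other genotypes. The dendritic cell list came near this pattern, at 1.62 to 2.04 CPM in SE, 1.99 to 3.53 CPM in SA and 2.24 to 2.52 CPM in WT. Its gene Ccr7 was called lower in SE against SA. The fibroblast and mesothelial, neutrophil, red cell and platelet, and eosinophil lists did not share the pattern. Fibroblast and mesothelial markers summed higher in SE than in WT. Neutrophil markers and red cell and platelet markers summed higher in SE than in SA, and eosinophil markers overlapped between genotypes. The 7 T and NK cell markers summed to 3.82 to 4.13 CPM in SE, 4.93 to 5.45 CPM in SA and 4.79 to 6.05 CPM in WT, nearly all of it Cd4, with Cd3e, Cd3g, Nkg7 and Ncr1 at 0 counts in every library. Cd4, the only one of the 7 that was tested, was not called (edgeR adjusted p = 0.0936 in SE against WT and 0.1003 in SE against SA). Ighm, a B cell marker, had 0.294, 0.175 and 0.157 CPM in SE, 0.573, 0.611 and 0.822 CPM in SA, and 0.360, 0.646 and 0.512 CPM in WT, and was called lower in SE against SA (edgeR adjusted p = 0.0254). Of all tested genes, 5.04% were called in SE against WT and 10.2% in SE against SA. Of 10 macrophage genes, Mertk, Fcgr1 and Cd14 were lower and C1qa higher in SE against WT, and Fcgr1, Cd14 and C1qa were lower in SE against SA. Their median log2 fold changes were -0.14 and -0.11. Of 10 tested genes that respond to cell handling, Jun was higher in SE against both genotypes, and against SA Egr1 was higher and Fos lower. The medians of these handling genes were -0.08 against WT and 0.13 against SA. The part of these genes in the lincRNA differences was not tested.

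Another pattern was a low level in SA. Gm14461 (chr2:78237547-78302230, plus strand) had 3.09, 3.03 and 3.25 CPM in SE, 1.72, 1.73 and 2.06 CPM in SA, and 4.67, 4.46 and 3.44 CPM in WT. Gm10419 (chr5:108367769-108378239, plus strand) had 2.55, 3.20 and 2.83 CPM in SE, 1.41, 1.68 and 1.49 CPM in SA, and 3.52, 3.76 and 3.35 CPM in WT. Gm14221 (chr2:160568379-160619971, minus strand) had 7.01, 8.79 and 7.44 CPM in SE, 4.80, 5.45 and 6.22 CPM in SA, and 9.03, 10.6 and 9.26 CPM in WT. All 3 genes ran in the order SA, SE, WT from low to high, with no overlap between any pair of genotypes.

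In SA against WT, Gm10419 was 2.31-fold, Gm14461 2.29-fold and Gm14221 1.75-fold lower (edgeR adjusted p = 0.000459, 0.000454 and 0.00097), and these calls held in all 18 settings. SE exceeded SA by 0.90 ± 0.19 in Gm10419, 0.77 ± 0.19 in Gm14461 and 0.50 ± 0.14 in Gm14221 (log2 ± standard error, edgeR adjusted p = 0.00491, 0.0139 and 0.0262). The SE against SA call of Gm14461 was lost without SA1 or SA2, and that of Gm14221 without SA1, SA2 or SE2, at edgeR adjusted p up to 0.0622 and 0.14. None of the 3 passed in SE against WT. Gm10419 shares 139 exon bases with Gm42517 on the opposite strand, a gene that averaged 1.95 CPM in SE, 1.48 CPM in SA and 2.27 CPM in WT and was not called.

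A further set was high in SA. Gm45752 (chr8:105973097-105985879, plus strand) had 12.3, 10.2 and 10.6 CPM in SE, 18.3, 17.7 and 17.5 CPM in SA, and 12.6, 11.8 and 12.5 CPM in WT. 1110002J07Rik (chr10:66912489-66920258, minus strand) had 3.43, 3.78 and 2.88 CPM in SE, 4.98, 4.54 and 5.35 CPM in SA, and 2.52, 2.94 and 2.65 CPM in WT. SA stood above both other genotypes without overlap in both genes. Against WT, Gm45752 was 1.45-fold higher in SA (edgeR adjusted p = 0.0016); against SA, it was 1.61-fold lower in SE (edgeR adjusted p = 0.000128). For 1110002J07Rik the rise in SA against WT was 1.84-fold (edgeR adjusted p = 0.00212) and the fall in SE against SA 1.48-fold (edgeR adjusted p = 0.0268); the SE against SA call was lost in 6 of 18 settings, among them without SA1, SA3, SE1 or SE3, at adjusted p up to 0.103.

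Gm45752 overlaps exons of Dpep2 and Dpep3, membrane dipeptidase genes on the opposite strand, over 1066 bases. Dpep3 was higher in SA than in WT by 0.57 (log2, edgeR adjusted p = 0.0327) and lower in SE than in SA by 0.48 (edgeR adjusted p = 0.0473), the directions of Gm45752, and without strand the genes' reads cannot be told apart. Gm43351 and Gm32098 were also called only in SA against WT, 1.47-fold and 1.77-fold higher (edgeR adjusted p = 0.0165 and 0.0339). Gm43351 had 5.05, 4.71 and 4.66 CPM in SE, 6.08, 5.91 and 6.42 CPM in SA, and 4.35, 4.29 and 3.86 CPM in WT, its 3 groups apart from each other. Gm32098 had 2.11, 1.34 and 2.09 CPM in SE, 3.09, 3.16 and 2.47 CPM in SA, and 1.84, 1.53 and 1.54 CPM in WT, with SA above both. The call of Gm43351 was lost without WT3, SA1 or SA3, and that of Gm32098 without WT2, WT3, SA1 or SA2 and in DESeq2, at adjusted p up to 0.099 and 0.148.

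Collagen genes from a list of fibroblast and mesothelial markers moved in the same direction as the lincRNAs high in SA. Col1a1, Col1a2 and Col3a1, the 3 tested genes of 10 fibroblast and mesothelial markers, all rose in SA against WT, and the list summed to 5.99 to 9.95 CPM in SE, 34.2 to 38.6 CPM in SA and 2.56 to 3.96 CPM in WT. The mesothelial markers Msln, Krt19 and Wt1 had 0 counts in every library, and Upk3b at most 0.0514 CPM. The fibroblast markers Dcn, Lum and Pdgfra did not pass the filter on low counts, so only the collagen genes of this list were tested. Of 10 macrophage genes, C1qa and Cd14 rose in SA against WT and 0 were called lower, where 4.07% of all tested genes were called. The median log2 fold change of the 10 was -0.09, so the list as a whole did not rise. Cd14 had 53.8 to 58.7 CPM in SE, 96.1 to 108 CPM in SA and 77.9 to 83.0 CPM in WT. The part of either list in the lincRNA differences was not tested.

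Low levels in both mutants against WT were found for Gm42047 and 2610035D17Rik; the comparisons share their WT libraries. Gm42047 (chr8:121833247-121841178, plus strand), rank 5 by mean CPM, had 103, 100.02 and 102 CPM in SE, 88.1, 92.7 and 92.8 CPM in SA, and 139, 123 and 147 CPM in WT. Both mutants lay below all WT libraries, and SA below SE. Against WT it was 1.34-fold lower in SE (edgeR adjusted p = 0.000829) and 1.498-fold lower in SA (edgeR adjusted p = 2.93e-05), in all 18 settings. Since 81.3% of its 31-base words occur in transcripts of 15 other genes, its level is uncertain. Its closest partner Gm47761 had at most 0.14 CPM. How reads that match several genes were counted is not given, so that low count does not settle the level of Gm42047.

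2610035D17Rik (chr11:113043895-113201838, minus strand) had 6.32, 5.12 and 4.61 CPM in SE, 4.76, 5.91 and 4.52 CPM in SA, and 7.67, 8.28 and 7.73 CPM in WT. SE and SA overlapped each other and lay below WT. The falls were 1.47-fold in SE (edgeR adjusted p = 0.0303) and 1.56-fold in SA (edgeR adjusted p = 0.0131). The SE call was lost in 7 of 18 settings, among them without WT1, WT3, SE2 or SE3, and the SA call without WT3, SA1 or SA3, at adjusted p up to 0.136 and 0.089. The neutrophil marker list, too, stood lower in both mutants, summing to 45.0 to 47.1 CPM in SE, 36.8 to 40.4 CPM in SA and 54.1 to 62.0 CPM in WT. Mmp8 was the called gene among its 7 markers, Ly6g and Retnlg had 0 counts throughout, and the list's part in these differences was not tested.

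Gm49249 (chr15:8512327-8532794, plus strand) was the only member called higher in SE than in WT. It had 5.39, 5.76 and 6.34 CPM in SE, 4.67, 3.72 and 4.73 CPM in SA, and 4.08, 3.76 and 4.10 CPM in WT, and SE lay above both other genotypes. Its rise was 1.46-fold (edgeR adjusted p = 0.033), and the call was lost in 9 of 18 settings, including each setting that left out a single WT or SE library, at adjusted p up to 0.132.

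The remaining 5 called members passed the test in SE against SA and in no other comparison, with SE lower. Gm34084 (chr13:44472426-44504548, minus strand) had 0.931, 1.34 and 0.890 CPM in SE, 2.82, 2.55 and 1.80 CPM in SA, and 1.40, 1.35 and 1.77 CPM in WT. SE lay below SA and WT without overlap, and SA above WT. The difference from SA was 2.29-fold (edgeR adjusted p = 0.0053) in all 18 settings. Prr33 was 1.78-fold, Gm41442 1.76-fold, 4930589L23Rik 1.62-fold and AI839979 1.48-fold lower in SE against SA (edgeR adjusted p = 0.011, 0.0463, 0.029 and 0.0246). Prr33 lay at 1.57 to 2.41 CPM in SE, 3.19 to 4.18 CPM in SA and 2.48 to 2.94 CPM in WT, and 4930589L23Rik at 1.47 to 2.09 CPM in SE, 2.56 to 2.93 CPM in SA and 2.14 to 2.36 CPM in WT, both with 3 groups apart. AI839979 lay at 3.90 to 4.66 CPM in SE, 5.96 to 7.27 CPM in SA and 4.05 to 5.75 CPM in WT, and Gm41442 at 1.05 to 1.52 CPM in SE, 1.72 to 2.83 CPM in SA and 1.41 to 2.09 CPM in WT. In these 2 genes WT overlapped SE. These 4 calls were lost in 2, 10, 7 and 5 of 18 settings; Prr33 needed SA2 and SE1, AI839979 needed SA1, SA2, SE1 and SE2, and 4930589L23Rik needed all SA libraries, SE1 and SE3. Gm41442 was lost without WT3, SA2, SA3, SE1, SE2 or SE3, and with the replicate block (edgeR adjusted p = 0.0522).

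**Figure D4:**
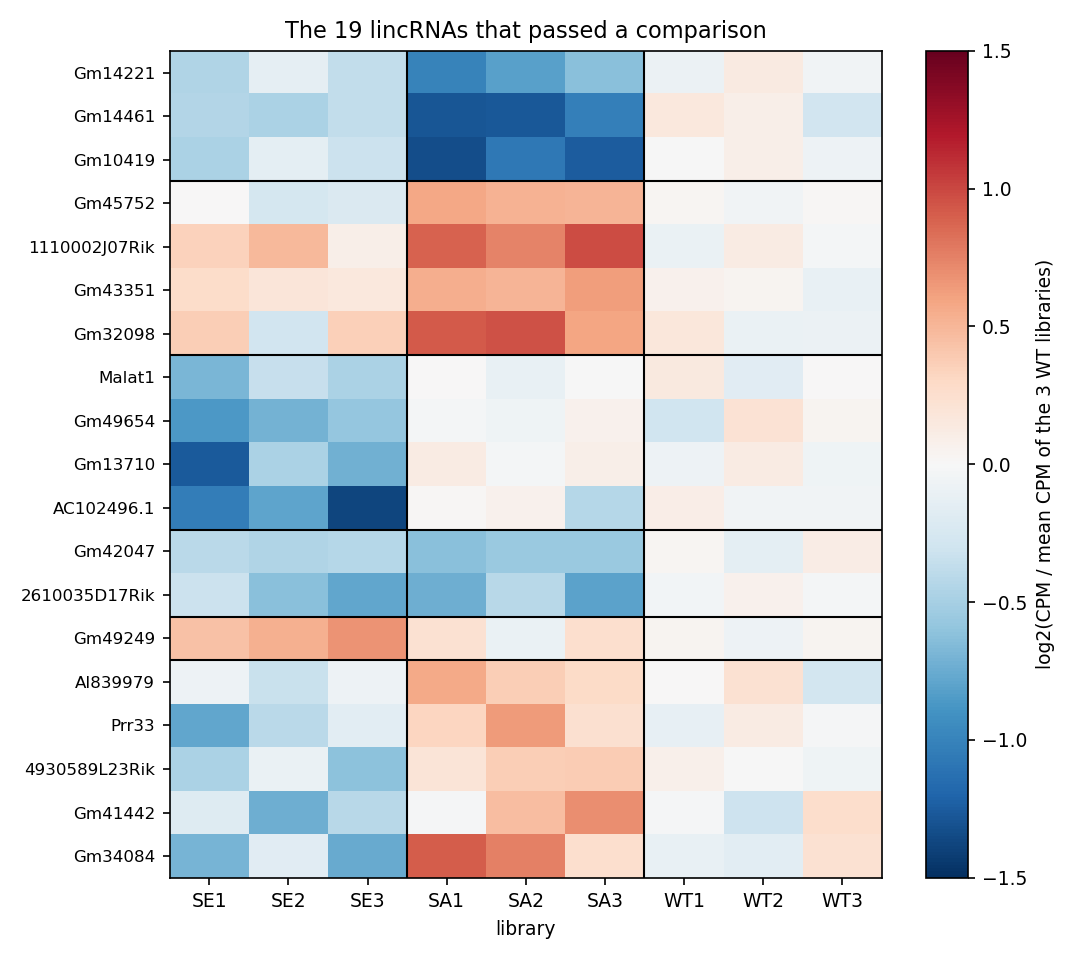
Log2 of CPM over the mean of the 3 WT libraries for the 19 called lincRNAs (rows) in each library of SE, SA and WT (columns), red above and blue below the WT mean. Rows are grouped from the top as low in SA, high in SA, low in SE, low in both mutants, high in SE, and called in SE against SA alone.

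The nearest coding gene by start was taken for each lincRNA, and pairs in which that gene was tested were compared. Over all 131 distinct tested neighbours, 5 were called in SA against WT (3.82%), 7 in SE against WT (5.34%) and 17 in SE against SA (12.98%). Of the called lincRNAs with a tested neighbour, 1 of 8 had a called neighbour in SA against WT, 0 of 6 in SE against WT and 4 of 14 in SE against SA by edgeR. For SE against WT, 3 of the 6 had an unadjusted p under 0.05 and DESeq2 called 0. In SE against SA these were Dpep3 beside Gm45752, Map3k9 beside Gm49654 and Jmjd1c beside 1110002J07Rik, each lower like its lincRNA, and Tfpi, an inhibitor of blood coagulation, beside Gm13710, which was higher by 0.41 (edgeR adjusted p = 0.00977) while Gm13710 was lower. Map3k9 differed by -0.44 and Jmjd1c, of the histone demethylase family, by -0.24 (log2, edgeR adjusted p = 0.0284 and 0.0398). Fnip2, which starts 396 bases from 4930589L23Rik on the opposite strand, was lower in SE by 0.25 and in SA by 0.23 against WT (edgeR adjusted p = 0.0216 and 0.0462), where 4930589L23Rik was not called.

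**Figure D5:**
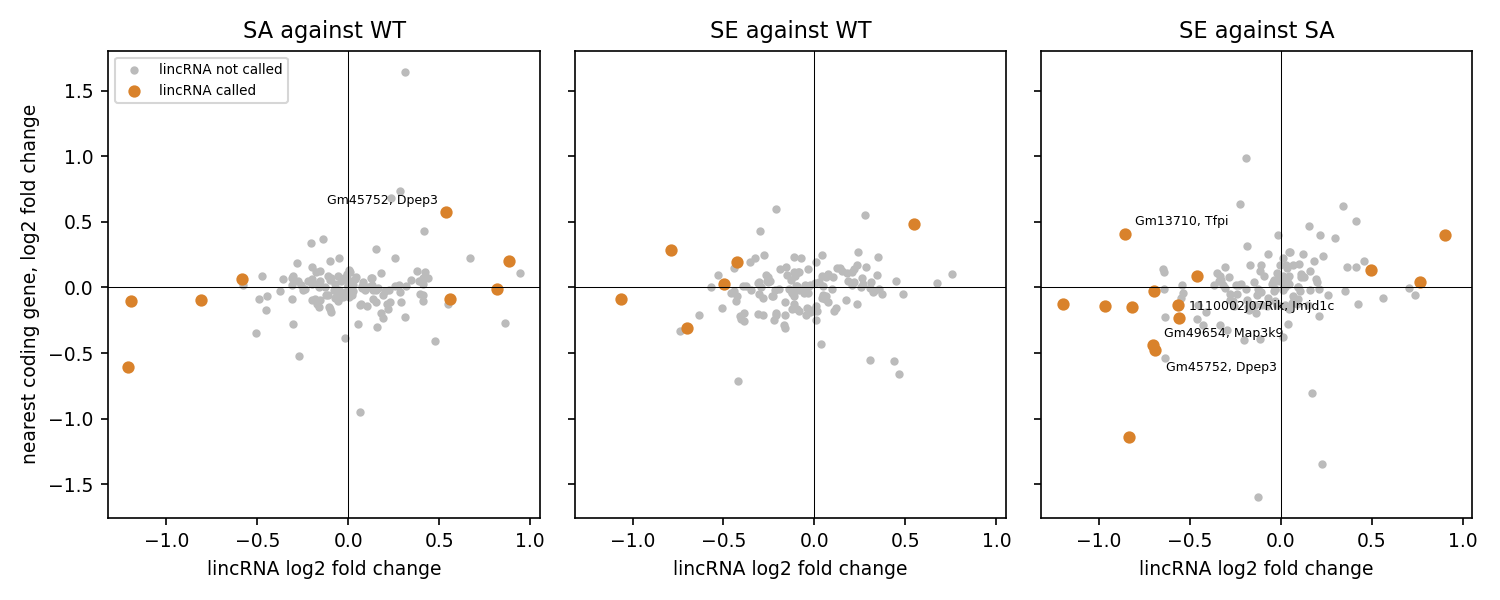
Log2 fold change of the nearest protein-coding gene, where it was tested, against that of the lincRNA, in SA against WT, SE against WT and SE against SA. Orange points are called lincRNAs; names are given where the neighbour was called too, 1 in the first panel, none in the second and 4 in the third.

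A list of 53 known long noncoding RNAs held 14 of the members, of which Malat1 alone was called. The list had 34 tested genes, of which 1 was called in SA against WT, 1 in SE against WT and 3 in SE against SA (background 4.07%, 5.04% and 10.2%). The calls outside the members were Mir99ahg, a microRNA host that GENCODE types as a processed transcript, and Dnmt3aos, antisense to the DNA methyltransferase gene Dnmt3a. Mir99ahg had 9.02, 9.95 and 7.07 CPM in SE, 11.9, 11.9 and 11.9 CPM in SA, and 8.59, 8.16 and 8.56 CPM in WT. SA lay above both other genotypes, by 0.49 against WT (log2, edgeR adjusted p = 0.0197), and SE differed from SA by -0.46 (edgeR adjusted p = 0.0184). The first call was lost without WT3 or any SA library and the second without any SA library or SE3, at edgeR adjusted p up to 0.0841 and 0.085. Dnmt3aos was higher in SE than in SA by 0.49 (log2, edgeR adjusted p = 0.00234) in all 18 settings, and without strand its reads cannot be told apart from those of its partner.

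Norad (2900097C17Rik) averaged 217 CPM in SE, 215 CPM in SA and 222 CPM in WT. 1700020I14Rik, the mouse Cyrano RNA, which directs the decay of miR-7, had 83.7, 92.1 and 73.4 CPM in SE, 94.8, 103 and 93.3 CPM in SA, and 106, 79.2 and 92.9 CPM in WT. SE overlapped WT and lay below SA, and no comparison passed, the smallest edgeR adjusted p being 0.159. 1810058I24Rik, which encodes a mitochondrial micropeptide, stayed between 73.8 and 84.5 CPM in all libraries.

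Members tied to macrophage or cell-growth programmes, named here by their known roles, were not called. AW112010, induced by inflammatory signals in mouse macrophages, lay between 3.38 and 5.25 CPM. AI427809, known as MeXis, which supports Abca1 transcription in mouse macrophages, had 0.833, 1.16 and 0.942 CPM in SE, 1.32, 1.22 and 1.39 CPM in SA, and 0.439, 1.06 and 0.745 CPM in WT. SA lay above all other libraries, but the difference of 0.86 ± 0.31 in SA against WT did not pass (edgeR adjusted p = 0.165). Abca1, the cholesterol exporter next to it, was lower in SE than in WT by 0.56 (log2, edgeR adjusted p = 0.000667), where AI427809 differed by 0.44 ± 0.33 (edgeR adjusted p = 0.529). Pvt1, beside Myc, averaged 3.80 CPM in SE, 3.51 CPM in SA and 3.15 CPM in WT, and its SE against WT difference of 0.28 ± 0.20 did not pass (edgeR adjusted p = 0.507), where Myc was higher by 0.55 (edgeR adjusted p = 0.0012).

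Of the 13 small-RNA precursors among the members, 0 were called by edgeR in any comparison, where the background was 4.07% in SA against WT, 5.04% in SE against WT and 10.2% in SE against SA. Of the members, 9 hold an annotated microRNA, 6 a snoRNA and 13 either, and the smallest edgeR adjusted p over these 13 and the 3 comparisons was 0.142, for 2700038G22Rik in SE against WT. An unadjusted edgeR p under 0.05 was found for 2 of the 13 in SA against WT, 2 in SE against WT and 0 in SE against SA, and DESeq2 called none. Mir17hg had 5.79, 6.98 and 4.03 CPM in SE, 4.72, 5.66 and 4.78 CPM in SA, and 5.39, 3.70 and 3.82 CPM in WT, and its groups overlapped. Mir142hg had 9.12, 10.1 and 9.79 CPM in SE, 8.95, 7.13 and 9.40 CPM in SA, and 9.75, 10.4 and 10.4 CPM in WT; SA lay below WT without overlap, at -0.26 and edgeR adjusted p = 0.312. The let-7 precursor 6720427I07Rik ranged from 2.72 to 5.35 CPM. Levels of these precursors do not give the amount of mature microRNA, which was not measured.

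Of 12 microRNA-processing genes, 1 was called in SA against WT and 2 in SE against WT. Of all tested genes, 4.07% and 5.04% were called in these comparisons and 10.2% in SE against SA. Ago4, an Argonaute protein, was lower in SA than in WT by 0.33 (edgeR adjusted p = 0.00402). In SE against WT, Tarbp2, the partner of Dicer, was higher by 0.31 and Ago3 lower by 0.29 (edgeR adjusted p = 0.0374 and 0.0423). None of the 12 was called in SE against SA by edgeR or DESeq2, where 4 had an unadjusted edgeR p under 0.05, and the counts over these lists changed most with WT2 and SE3 left out.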

How the data were processed

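Poly(A) RNA of 9 libraries (3 each of SE, SA and WT) was sequenced. The table the authors deposited holds raw read counts per Ensembl gene; per the submitters' processing notes, reads went through HISAT2 2.1.0 and featureCounts on mm10. Not given in the sources used here are the featureCounts version, its strand and multi-mapping options and the gene annotation. IDs were matched to GENCODE M21 (55141 of 55401).

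All 9 libraries were fitted in R 4.3.3 with edgeR 4.0.16 (limma 3.58.1): filterByExpr on genotype (minimum count 10, minimum total 15; 13501 genes), TMM, robust quasi-likelihood fit, 2-sided F test, Benjamini-Hochberg over all tested genes, called under 0.05; 6 residual degrees of freedom, biological coefficient of variation 6.75%. Summed levels used library totals. DESeq2 1.42.0 was an alternative. The fit was tested on simulated data. Members and lists were chosen with earlier results of these data known. Named were the called members, the most abundant ones by CPM and RPKM, known lincRNAs, neighbours and overlapping genes of called members, and the leading called genes of each list; Abca1 and Myc are neighbours of uncalled members and were named after their values were seen. Deviations of same-numbered libraries correlated between -0.19 and 0.10, so replicate numbers were not taken to pair them. The summed B cell marker list is not reported here.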

Additional observations from a re-analysis of the deposited data

How the results depend on the processing

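Of 30 called gene and comparison pairs, 16 were called in all 18 settings, 14 were lost in at least 1, and 0 changed sign; the cause was not tested. Leaving out 1 library gave 6 to 10 called members in SA against WT, 4 to 8 in SE against WT and 8 to 16 in SE against SA. With the replicate number as a block the called members were 9, 7 and 13, although the numbers share no more than a label. Calls over all genes in each setting are not given here, so the counts of this paragraph cannot be set against a background. Neighbours of called lincRNAs passing the test ranged from 0 to 1, 0 to 1 and 0 to 4 when 1 library was left out, and list genes from 1 to 2, 0 to 6 and 1 to 6, against 1, 3 and 2 over all libraries. List genes called in SA against WT were 2 with library totals, 2 in DESeq2 and 3 without WT2 and SE3. In SE against WT they were 1 with the replicate block, 0 with only those genotypes fitted and 11 without WT2 and SE3. In SE against SA they were 5 with library totals, 4 with no filter, 4 at a mean of at least 1 CPM, 4 with only those genotypes fitted, 4 in DESeq2, 9 without WT2 and SE3 and 7 without WT1 and SE2; both omissions of 2 libraries were chosen after seeing the data.

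The summed level of SA was 4466 CPM with TMM, 4461 CPM with RLE, 4586 CPM for members of at least 0.5 CPM and 4436 CPM for those of at least 2 CPM. Without members that overlap other exons, Malat1 among them, the sums were 2711 CPM in SE, 2848 CPM in SA and 2784 CPM in WT. Without Malat1 and Neat1 they were 1496 CPM in SA at 0.5 CPM, then 1300.5 CPM in SE, 1346 CPM in SA and 1387 CPM in WT at 2 CPM, and 1178, 1210.3 and 1260 CPM with no overlap. The part of depth in the few calls among members between 1 and 2 CPM was not tested; coding genes at that level were called in 6.64%, 3.95% and 10.6% of cases.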

Other observations

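Other noncoding classes were set beside the lincRNAs, as medians of log2 differences over autosomal genes of at least 1 CPM. In SE against WT the median was -0.07 over 173 lincRNAs, -0.11 over 114 unconfirmed single-exon transcripts (TEC), -0.04 over 122 processed transcripts, 0.02 over 181 antisense genes and -0.00 over 10405 coding genes. With 1 library left out they ranged from -0.10 to -0.05 for lincRNAs, from -0.19 (without WT2) to -0.07 (without SE3) for TEC genes and from -0.09 (without SE2) to -0.02 (without SE3) for processed transcripts, and the antisense median changed sign, from -0.01 (without WT2) to 0.02 (without WT1). Antisense genes were called in 1 case in SA against WT (0 higher), 4 in SE against WT (3 higher) and 7 in SE against SA (all 7 higher), and TEC genes in 0, 2 and 3 cases by edgeR, all lower. These were 0.552%, 2.21% and 3.87% of the antisense genes and 0%, 1.75% and 2.63% of the TEC genes. Of all tested genes 4.07%, 5.04% and 10.2% were called in the same order, and no test of direction was run. In SA against WT 3 TEC genes had an unadjusted p under 0.05 and DESeq2 called 0. Over single libraries the lincRNA median lay at -0.02, -0.01 and -0.06 in SE1, SE2 and SE3, at -0.00, 0.05 and 0.02 in SA1, SA2 and SA3, and at 0.04, -0.01 and 0.03 in WT1, WT2 and WT3 (log2 of CPM + 0.5, relative to each gene's mean). SE1, SE2 and SE3 lay below WT1, WT2 and WT3 there, with SE2 and WT2 adjacent.

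Outside the autosomes, 3 further lincRNA genes reached a mean of 1 CPM and were not analysed here.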
